A study of Mus musculus with 2 samples.

Results

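The tumor neutrophils described here are 64 cells out of 13040 that passed quality filters, taken from 14940 cells in 2 single-cell RNA-seq libraries of mouse CD45+ cells sorted from subcutaneous B16 melanomas. They were chosen by their own RNA. A cell had to hold at least 10 UMIs (unique molecular identifiers, 1 per captured transcript) of S100a8 and at least 10 of S100a9, and 0 UMIs of Csf1r, C1qa, Cd3e and Cd79a, the markers of monocytes and macrophages, T cells and B cells. It also had to hold at least 500 UMIs from at least 200 genes, with mitochondrial genes under 10% of its UMIs. The levels of those 6 genes are therefore given as a description only. The h219-LLG library held 45 of these cells and the control library held 19.

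The mice of both groups were 6 to 8 weeks old, on the C57BL/6J strain, carried a human LAIR1 transgene switched on in blood cells by Vav-cre, and lacked mouse LAIR1 (LAIR1-/-). After inoculation with B16 cells, 1 group received h219-LLG, an antibody that blocks human LAIR1, and the other received a control antibody of the same isotype, both intravenously in repeated doses. Each group is 1 library, and how many mice were pooled for it is not stated. No difference between the groups was therefore tested, and every interval below is a 95% interval that covers counting error only, not the variation between mice. Human LAIR1 RNA was not measured, because the reads were aligned to the mouse genome alone.

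Neutrophils are short-lived phagocytes that leave the bone marrow after making their granule proteins in a fixed order. Precursors transcribe the azurophil granule enzymes first, then the specific granule proteins such as Camp, Ltf and Ngp, and last the gelatinase granule genes, while mature cells shut most of these genes down and carry receptors such as Cxcr2 and Csf3r. In tumors, mature neutrophils also make cytokines and chemokines that draw in other leukocytes. LAIR1 is a collagen receptor that carries inhibitory motifs (ITIMs), which recruit phosphatases once Src family kinases such as Lyn have phosphorylated them.

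The label was checked against genes that the choice of cells did not use. The 15 genes that stood out most from all other kept cells were Gm5483, Stfa2l1, Retnlg, Asprv1, Ly6g, Il1f9, Chil1, Mmp9, Lcn2, Wfdc21, Cxcr2, G0s2, Hdc, Csf3r and Dhrs9. Retnlg, a resistin-like secreted protein of mature mouse neutrophils, reached 16955 CPM (UMI counts scaled to a library total of 1000000) in the h219-LLG neutrophils and 15427 CPM in the control neutrophils, against 7.49 and 0.734 CPM in the monocytes and macrophages of the same libraries. Csf3r, the receptor for G-CSF, had a UMI in 44 of 45 and 17 of 19 cells, and Cxcr2, the receptor for neutrophil chemokines, in 43 of 45 and 17 of 19. In B cells, which should lack both genes, Csf3r was seen in 4 of 2282 and 2 of 1696 cells and Cxcr2 in 2 and 4 cells. These B cells were taken with under 10 UMIs of S100a8, so cells rich in neutrophil RNA were not among them. B cells had a median of 3549 and 4278 UMIs and the neutrophils 3000 and 4090, so depth was close between them. The label did not hold for 1 control cell of 508 UMIs. It held no UMI of the 7 genes on the neutrophil marker list that the choice did not use. It is among the 19 control cells of the results below. Gm5483, Stfa2l1 and Stfa1 belong to the stefin A family, whose copies are nearly identical, so the division of reads among them is uncertain.

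**Figure D1:**
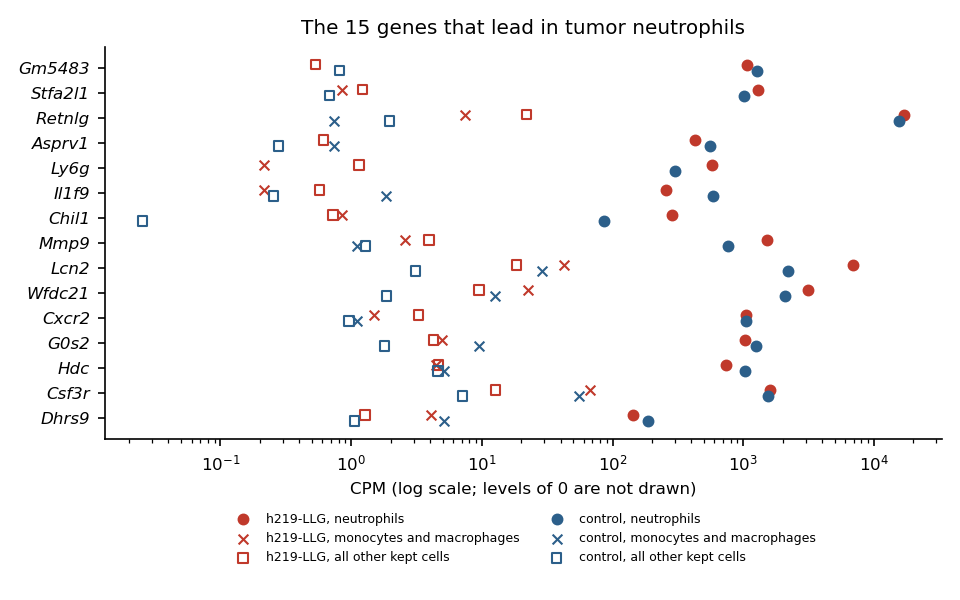
Levels in CPM (log axis) of the 15 genes that lead in tumor neutrophils, in the neutrophils (filled circles), the monocytes and macrophages (crosses) and all other kept cells (open squares), with h219-LLG in red and control in blue. Every neutrophil level lies to the right of both other kinds of point, from 86.3 CPM for Chil1 in the control to 16955 CPM for Retnlg with h219-LLG.

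Most markers of other cells were at or near 0, but Ly6c2 was not. Of the lists of cell type markers, those of dendritic cells, T cells, B cells, NK cells, eosinophils, basophils or mast cells, melanoma cells and erythroid cells summed to between 0 and 8 UMIs over all neutrophils of a library, rule genes left out. The choice excluded cells with Cd3e, Cd79a, Csf1r or C1qa. Low counts of other T cell, B cell and macrophage markers follow in part from that. The monocyte and macrophage list summed to 132 UMIs in the h219-LLG cells (0 to 19 per cell) and 32 UMIs in the control cells (0 to 6 per cell). It consisted mainly of Ly6c2 with 83 and 22 UMIs and Apoe with 45 and 6 UMIs, while 4 and 3 of its 8 measured genes were at 0. Ly6c2 stood at 473 and 316 CPM, against 759 and 388 CPM in monocytes and macrophages. A single h219-LLG cell with 8519 UMIs held all 6 UMIs of Gzma and 49 of the 55 of Ccl5, genes of cytotoxic lymphocytes. No cell barcode of a neutrophil occurred in the other library, although the libraries shared 13 barcodes.

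The neutrophils made up a larger share of the kept cells with h219-LLG. They were 0.605% of 7433 cells (exact binomial interval 0.442 to 0.809%) with h219-LLG and 0.339% of 5607 cells (0.204 to 0.529%) in the control, a ratio of 1.79 (1.05 to 3.05). Among kept cells with no Cd3e and no Cd79a UMI the shares were 2.32% and 1.29%. The ratio was 1.59 with an interval of 0.921 to 2.74, which includes 1, when the 5 Camp-high cells, those with at least 10 UMIs of Camp, were left out. The cells closest to the threshold differed between the libraries. The least S100-rich control members held 17 UMIs of S100a8 with 10 of S100a9, and 17 with 16, while the lowest h219-LLG members held 45 with 173 and 95 with 50. Just outside were 3 control cells, with 6, 7 and 20 UMIs of S100a8 and 3, 23 and 3 of S100a9, and 4 h219-LLG cells with 5 to 8 UMIs of S100a8 and 6 to 27 of S100a9. All 3 of those control cells and 3 of those 4 h219-LLG cells had Csf3r UMIs.

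S100a8 and S100a9, the subunits of calprotectin, dominated the RNA of these cells. S100a9 stood at 136708 CPM with h219-LLG and 105719 CPM in the control, and S100a8 at 108500 and 71587 CPM. Per cell, S100a8 and S100a9 together took 5.12 to 44.4% of the UMIs with h219-LLG (median 16.5%) and 1.60 to 32.9% in the control (median 16.9%). The groups overlapped over most of this range. The 5 Camp-high h219-LLG cells described below had 35.9 to 44.4%, and the highest of the other 40 had 36.6%. At the bottom were 2 control cells with 1.60 and 2.27%. Next in abundance in both libraries came Malat1 (26688 and 36663 CPM), Tmsb4x (23852 and 20805 CPM), Retnlg, Actb (10086 and 10438 CPM) and Gm42418 (21135 and 36678 CPM), a gene model that holds ribosomal RNA sequence. Ngp, Camp and S100a6 (7785 and 6829 CPM) completed the 10 most abundant genes with h219-LLG. In the control those places were taken by Fth1, Srgn and Cxcl2, at 18058, 11200 and 8641 CPM, against 4881, 5724 and 2381 CPM with h219-LLG.

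**Figure D2:**
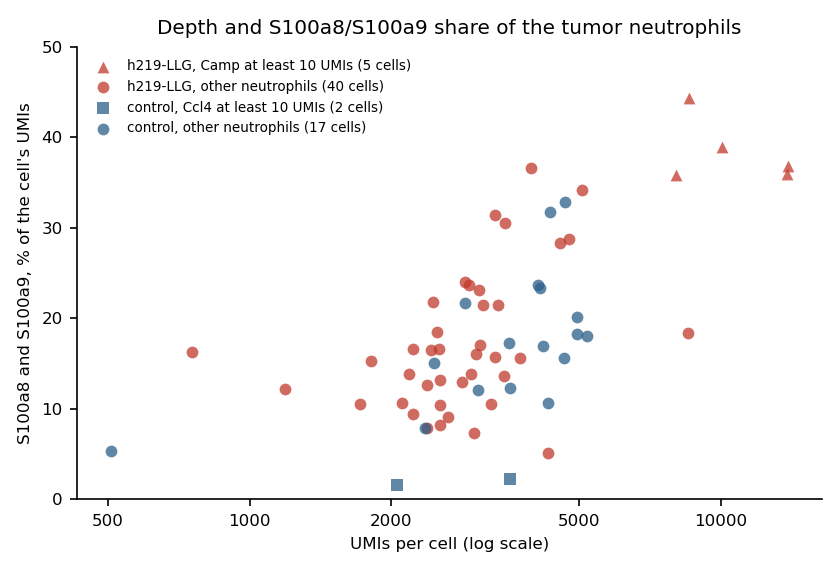
UMIs per cell (log axis) against the percent of a cell's UMIs that came from S100a8 and S100a9, for all 45 h219-LLG (red) and 19 control (blue) neutrophils. Triangles are the 5 h219-LLG cells with at least 10 UMIs of Camp, which lie at the upper right with 8029 to 13921 UMIs, and squares are the 2 control cells with at least 10 UMIs of Ccl4, which lie at the bottom.

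Within each library the neutrophils also stood apart from monocytes and macrophages (cells with at least 2 UMIs of Csf1r and none of Cd3e or Cd79a, 424 with h219-LLG and 208 in the control). Of 1178 genes measured well enough, 112 were at least 4-fold higher in neutrophils in both libraries (9.51%) and 195 at least 4-fold lower (16.6%). Of 9 measured genes that mark mature neutrophils 8 were among the higher ones, as were 4 of 7 gelatinase granule and secretory vesicle genes. None of these 16 genes was among the lower ones. Of the MHC class I presentation genes 0 of 4 were higher and 1 was lower. When S100a8 and S100a9 were left out of the total, 141 genes were higher and 129 lower.

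Between the groups, 1032 genes had at least 30 UMIs over all 64 neutrophils. Of these, 69 (6.69%) were at least 2-fold higher with h219-LLG and 110 (10.7%) at least 2-fold lower, and for 49 and 99 of them the interval of the ratio excluded 1. The median log2 ratio of all 1032 genes was -0.12. Leaving S100a8 and S100a9 out of the library totals moved that median to -0.00070 and the counts to 91 higher and 82 lower, so the excess of lower genes rested on the scaling. It rested on a few cells as well. Without the 5 h219-LLG cells that held at least 10 UMIs of Camp, 874 genes were measured, of which 52 (5.95%) were higher and 48 (5.49%) lower. Of the 69 genes called higher with all cells 34 were still measured and 28 of those still called, and of the 110 called lower 96 were still measured and 46 of those still called. Without the 2 control cells that held at least 10 UMIs of Ccl4 as well, 56 genes were higher and 35 lower. Both exclusions were chosen after the data were seen. The results below are therefore given without these 7 cells as well for many genes, but not for every value that they move.

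The largest difference lay in the specific granule genes, and it came from 5 cells. All 5 measured members of that list, Camp, Ltf, Ngp, Lcn2 and Chil3, were at least 2-fold higher with h219-LLG. Their median log2 ratio was at least 6.14 against -0.12 for all genes, a lower bound, since it is the value of Ltf with the control set at 3 UMIs. Camp encodes the cathelicidin precursor, Ltf lactoferrin, Ngp neutrophilic granule protein, Lcn2 the siderophore-binding protein lipocalin 2, and Chil3 a chitinase-like protein. Camp had 1825 UMIs with h219-LLG and 0 in the control, and was at least 241-fold higher when the control is set at 3 UMIs, or 43.1 CPM. Ltf had 534 and 0 UMIs (at least 70.5-fold higher) and Chil3 had 189 and 0 (at least 24.96-fold higher). Ngp stood at 10730 and 101 CPM, and Lcn2 at 6925 and 2214 CPM, a ratio of 3.13 (2.64 to 3.72).

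The genes of Camp (9:109847379-109849617, minus strand), Ngp (9:110419747-110423012, plus strand) and Ltf (9:111019271-111042767, plus strand) lie near each other on chromosome 9 of GRCm38. Their upstream sequences are shown because these 3 genes carry the difference and were seen together in the same cells. Each is the stretch before the RefSeq start that lies outside the annotated gene, from RefSeq's GRCm38.p6 tables, in the direction of transcription, with matches to TTGCNNAA on either strand, a consensus of the C/EBP factors that drive granulocyte genes, in capitals.
Camp, chr9:109849618-109849706, minus strand: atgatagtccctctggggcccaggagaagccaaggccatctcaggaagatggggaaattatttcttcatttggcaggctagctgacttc
Ngp, chr9:110419558-110419746, plus strand: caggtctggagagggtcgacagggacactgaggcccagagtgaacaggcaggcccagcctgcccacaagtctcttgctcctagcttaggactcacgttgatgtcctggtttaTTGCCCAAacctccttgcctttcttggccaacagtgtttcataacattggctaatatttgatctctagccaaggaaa
Ltf, chr9:111019042-111019270, plus strand: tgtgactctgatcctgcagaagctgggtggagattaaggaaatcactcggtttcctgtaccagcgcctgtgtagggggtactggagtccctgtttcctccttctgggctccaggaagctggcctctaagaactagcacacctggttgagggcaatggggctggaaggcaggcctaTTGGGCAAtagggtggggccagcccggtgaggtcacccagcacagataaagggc
The Ngp and Ltf windows held 1 match each and the 89 bases of Camp held none. Of 32851 RefSeq promoter windows of the same lengths, 7.76% (189 bases), 9.02% (229 bases) and 3.68% (89 bases) held a match. A match is a description of the letters and not of a bound site.

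Camp and Ltf were seen in the same 5 cells and in no other neutrophil. These were the 5 deepest h219-LLG cells other than the Gzma-positive one, with 8029 to 13921 UMIs against a median of 2896 in the other 40. In order of their Camp UMIs they held 798, 645, 234, 110 and 38 of Camp, 168, 210, 109, 22 and 25 of Ltf, and 684, 702, 264, 101 and 124 of Ngp. Over the same cells Retnlg went the other way, with 1, 78, 190, 254 and 606 UMIs. Cebpe, the transcription factor of the specific granule stage, had 6 and 9 UMIs in the 2 cells with the most Camp and 0 in the other 3. Mmp8, the neutrophil collagenase, had 1 and 3 UMIs in those 2 cells and 40, 42 and 23 in the other 3. These 5 cells thus covered a range, from high Camp with almost no Retnlg to lower Camp with high Retnlg.

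Compared with the other 40 h219-LLG neutrophils, the Camp-high cells differed in many genes outside the granule list. As Camp chose them, these values are a description. Cybb, the catalytic subunit of the NADPH oxidase, had 85 of its 88 UMIs in them, Cd177, a surface partner of the integrin Itgam, 81 of 89, and Ly6g, the usual surface marker of mouse neutrophils, 83 of 101. Lyz2 (lysozyme) was 6.91-fold higher in them (interval 6.03 to 7.95), Anxa1 4.74-fold (3.64 to 6.20) and Mmp8 3.97-fold (2.88 to 5.53). Il1b was absent in the 5 cells and had 496 UMIs in the other 40, where 39 cells held it. Ccl6 had 3 and 383 UMIs, Cxcl2 13 and 405, Ifitm1 2 and 146, Wfdc17 0 and 130, and Ptgs2 0 and 40. Csf3r stood at 331 CPM in the Camp-high cells against 2163 CPM in the others, and Cxcr2 at 441 against 1321 CPM.

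The 5 cells were 11.1% of the h219-LLG neutrophils (3.71 to 24.1%). The control had 0 of 19, which allows a share of up to 15.8% by the limit of 3 counts and of up to 17.6% by the exact binomial interval, so a difference in the share of such cells was not detectable with these numbers. Free RNA of these genes was low, with Camp in 6 of 2282 B cells and 1 of 1696. Without the Camp-high cells Ngp had 9 UMIs with h219-LLG and 7 in the control, and Lcn2 stood at a ratio of 0.779 (0.630 to 0.966). The azurophil granule genes Mpo, Elane, Prtn3 and Ctsg, which precede Camp and Ltf in the bone marrow, were at 0 UMIs in all 64 cells. Of the proliferation genes Hmgb2 alone was measured, at 1578 and 906 CPM, and Mki67 and Top2a had too few UMIs for a comparison.

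**Figure D3:**
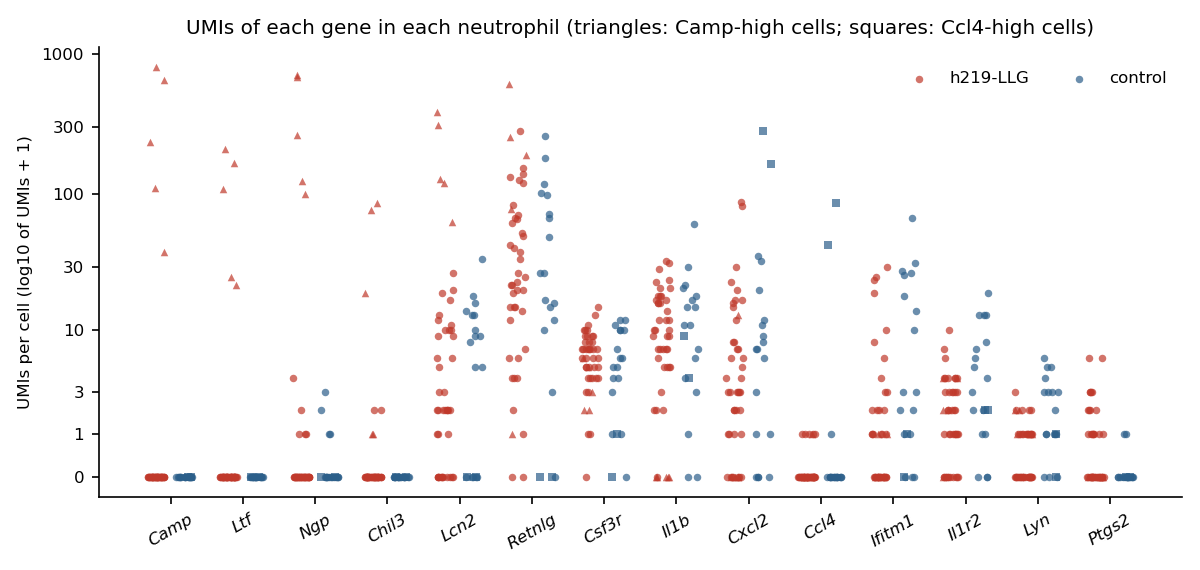
UMIs of 14 genes in each neutrophil (log10 of UMIs + 1, with the axis marked in UMIs), h219-LLG in red and control in blue, 1 point per cell, with horizontal scatter added to separate the points. Triangles are the 5 Camp-high cells, which hold every Camp and Ltf UMI and no Il1b, and squares are the 2 Ccl4-high control cells, which hold 447 of the 601 control UMIs of Cxcl2.

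Gelatinase granule and secretory vesicle genes differed less. Of 7 measured, 2 were at least 2-fold higher and 0 lower, beside 6.69% and 10.7% of all genes. Their median log2 ratio was 0.29. Mmp9, gelatinase B, stood at 1526 CPM with h219-LLG and 762 CPM in the control, a ratio of 2.00 (1.49 to 2.74), and had a UMI in 41 of 45 and 15 of 19 cells. Without the 7 cells its ratio was 1.69 (1.23 to 2.35). Anxa1, annexin A1, stood at 1515 and 733 CPM, but its ratio went from 2.07 to 0.880 without the 7 cells. Slpi, a leukocyte protease inhibitor and the most abundant of the list, had a ratio of 0.621 with all cells and 1.11 without the 7.

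Of the genes of mature neutrophils 9 were measured, of which 0 were at least 2-fold higher and 1 lower. Beside 6.69% higher and 10.7% lower over all genes, the count is no result about the list. Their median log2 ratio was -0.28, with 3 ratios above 1 and 6 below. Retnlg had a ratio of 1.10 (1.02 to 1.18), Csf3r 1.03 (0.820 to 1.29) and Cxcr2 0.998 (0.757 to 1.33). These intervals leave room for differences of up to about the size of their bounds. Without the 7 cells Retnlg was at 0.909 (0.843 to 0.981) and Csf3r at 1.29 (1.03 to 1.63). Clec4d stood at 689 and 1323 CPM, a ratio of 0.521 (0.394 to 0.691), and at 0.748 (0.561 to 1.00) without the 7. The 1 gene called lower was Il1r2, the decoy receptor that binds interleukin 1 without signaling. It stood at 547 CPM with h219-LLG and 1452 CPM in the control, a ratio of 0.377 (0.282 to 0.503). It was seen in 33 of 45 and 16 of 19 cells, and in 20 of 2282 and 76 of 1696 B cells. The ratio was 0.457 (0.337 to 0.618) without the 7 cells. Il1r2 was also lower with h219-LLG in the other cells, at 43.6 and 92.2 CPM in monocytes and macrophages and 2.51 and 11.2 CPM in B cells, and it was lower in T cells as well. The part of this in the neutrophil value was not tested. After thinning each cell to 1000 UMIs, Il1r2 was seen in 36.4% of 44 and 61.1% of 18 cells.

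Of 9 chemoattractant receptors measured, 4 were at least 2-fold lower with h219-LLG and 1 higher, beside 10.7% and 6.69% of all genes. Their median log2 ratio was -0.78. Without the 7 cells 0 of the 7 still measured were at least 2-fold lower and 0 higher, with 2 ratios above 1 and a median of -0.49. Ccr1, a receptor for Ccl3 and Ccl6, stood at 564 and 1510 CPM (ratio 0.373, 0.281 to 0.496), Ptafr, the receptor for platelet-activating factor, at 262 and 590 CPM (0.444), Fpr1, a formyl peptide receptor, at 96.8 and 201 CPM (0.481, 0.223 to 1.05), and Ccrl2, a chemerin-binding receptor that does not signal, at 188 and 518 CPM (0.363). Without the 7 cells Ccr1 was at 0.607 (0.445 to 0.829), Ptafr at 0.709 and Ccrl2 at 1.34, and Fpr1, with 10 and 14 UMIs, was no longer measured. Ltb4r1, the leukotriene B4 receptor, was the one higher, with 37 UMIs in 13 h219-LLG cells against 2 in 2 control cells, and 27 of the 37 lay in the Camp-high cells. In monocytes and macrophages Ptafr (122 and 187 CPM) and Ccrl2 (121 and 178 CPM) were also lower with h219-LLG. Ccr1 (217 and 182 CPM) and Fpr1 (2.14 and 0.367 CPM) were higher there. The part of this in the neutrophil values was not tested.

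The cytokine and chemokine list showed the widest gap in the other direction, and most of it came from 2 control cells. Of 8 measured genes 4 were at least 2-fold lower with h219-LLG and 0 higher, beside 10.7% and 6.69% of all genes. Their median log2 ratio was -1.30. Cxcl2, a chemokine that attracts neutrophils through Cxcr2, stood at 2381 CPM with h219-LLG and 8641 CPM in the control. Ccl4 had 6 and 130 UMIs, Ccl3 17 and 116, and Il1rn, the interleukin 1 receptor antagonist, 16 and 42. The 2 control cells, of 3574 and 2057 UMIs, held 86 and 43 UMIs of Ccl4, 62 and 37 of Ccl3, 284 and 163 of Cxcl2 and 15 and 14 of Il1rn. They also held 31 and 28 UMIs of Jun and 30 and 14 of Egr1, immediate early genes. The same cells had 55 and 17 UMIs of S100a8, 0 and 1 of Csf3r and none of Retnlg, and so were among the members nearest to the threshold of the choice.

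Without those 2 cells and the Camp-high cells only 4 of the 8 genes were still measured. Their median log2 ratio was 0.29, with 1 gene, Osm, at least 2-fold higher and 0 lower, and Cxcl2 had a ratio of 1.39 (1.15 to 1.68). Genes that fell under 30 UMIs and so left the median included Ccl4, with 5 and 1 UMIs, and also Ccl3 and Il1rn, whose ratios stayed under 1. Ccl3, then with 10 and 17 UMIs, had a ratio of 0.310 (0.127 to 0.718) and Il1rn one of 0.406 (0.159 to 1.00), an interval that reaches 1. A single control cell held 14 of those 17 UMIs of Ccl3, and a single h219-LLG cell 7 of the 10, so few cells make that ratio. Il1b, the gene of interleukin 1 beta, stood at 2825 CPM with h219-LLG and 3666 CPM in the control, a ratio of 0.771 (0.661 to 0.900) with all cells and 1.08 (0.926 to 1.27) without the 7. It was seen in 39 of 45 and 17 of 19 cells. Ccl6, a monocyte-attracting chemokine made by most of these cells, had ratios of 0.600 and 0.846. In monocytes and macrophages Il1rn was also lower with h219-LLG, at 51.3 and 85.6 CPM. Cxcl2 (2861 and 2167 CPM), Ccl3 (379.6 and 262.2 CPM) and Ccl4 (600.7 and 363.9 CPM) were higher there. The part of this in the neutrophil values was not tested.

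Dissociation stress genes and NF-kB response genes moved in large part with the same cells. Of 12 stress genes measured, 5 were at least 2-fold lower with h219-LLG, namely Jun, Jund, Egr1, Hspa1a and Hsp90aa1, and 0 higher. Over all genes 10.7% were lower and 6.69% higher. Hspa1a, a heat shock protein, had 1 and 29 UMIs, all 29 of them in 2 control cells with 20 and 9, other than the Ccl4-high ones. The libraries also differed in these heat shock genes outside the neutrophils. Hspa1a stood at 35.1 and 220 CPM in B cells, 16.6 and 81.7 CPM in T cells and 313 and 949 CPM in monocytes and macrophages, and Hsp90aa1 at 652 and 1024 CPM in monocytes and macrophages, and the part of this in the neutrophil values was not tested. Without the 7 cells 11 stress genes were measured, 2 lower and 1 higher, and their median log2 ratio was 0.13 against -0.74 with all cells. Hsp90aa1 stayed at a ratio of 0.199, while Dusp1, a phosphatase of MAP kinases, went from 1.29 to 2.11 (1.62 to 2.78). Junb, its most abundant member, had a ratio of 0.772 with all cells. Of 5 NF-kB response genes measured, Nfkbiz (0.426), Ier3 (0.350) and Nlrp3 (0.420) were lower and 0 higher, and without the 7 cells their ratios were 0.812, 0.806 and 0.690, while Zfp36, which promotes the decay of cytokine mRNAs, went from 0.817 to 2.24 (1.55 to 3.32). Nfkbia, the NF-kB inhibitor, stood at 963 and 1553 CPM. In monocytes and macrophages Nlrp3 was also lower with h219-LLG, at 94.7 and 170 CPM. Nfkbiz (245.3 and 195.4 CPM) and Ier3 (395.6 and 294.5 CPM) were higher there. The part of this in the neutrophil values was not tested.

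Of 7 interferon-stimulated genes measured, 3 were at least 2-fold lower with h219-LLG, 2 without the 7 cells, and 0 were higher. Over all genes 10.7% were lower with all cells and 4.13% without the 7. All 7 ratios were under 1 with and without those cells, with a median log2 ratio of -0.98 and -0.87. Ifitm1, a membrane protein that restricts virus entry, stood at 843 CPM with h219-LLG and 3379 CPM in the control, a ratio of 0.249 (0.202 to 0.308) with all cells and 0.329 (0.266 to 0.407) without the 7. It was seen in 22 of 45 cells, with up to 30 UMIs in a cell, and in 15 of 19 control cells, with up to 67, so the groups overlapped. After thinning to 1000 UMIs it was seen in 29.5% and 55.6% of cells. Isg15, a ubiquitin-like modifier, had 22 and 33 UMIs in 11 and 10 cells, a ratio of 0.264 (0.147 to 0.467) and 0.352 (0.195 to 0.622) without the 7. Oasl2 had a ratio of 0.462, and of 0.545 (0.319 to 0.933) without the 7. Rsad2 had one of 0.507, and Ifitm2, the most abundant of the list, went from 0.695 to 0.881 (0.744 to 1.05). In monocytes and macrophages the direction was the reverse. All 7 genes stood higher there with h219-LLG, among them Ifitm1 at 191 and 114 CPM and Isg15 at 127 and 56.6 CPM. Ifit1, Ifit2, Mx1 and most other members had too few UMIs to be measured, so the list speaks for a part of the response. The MHC class I genes, some of which interferon also raises, had 0 of 4 members at 2-fold or more in either direction. H2-D1 stood at 2284 and 1783 CPM, a ratio of 1.28 (1.05 to 1.58), and B2m at a ratio of 0.775 (0.615 to 0.981).

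**Figure D4:**
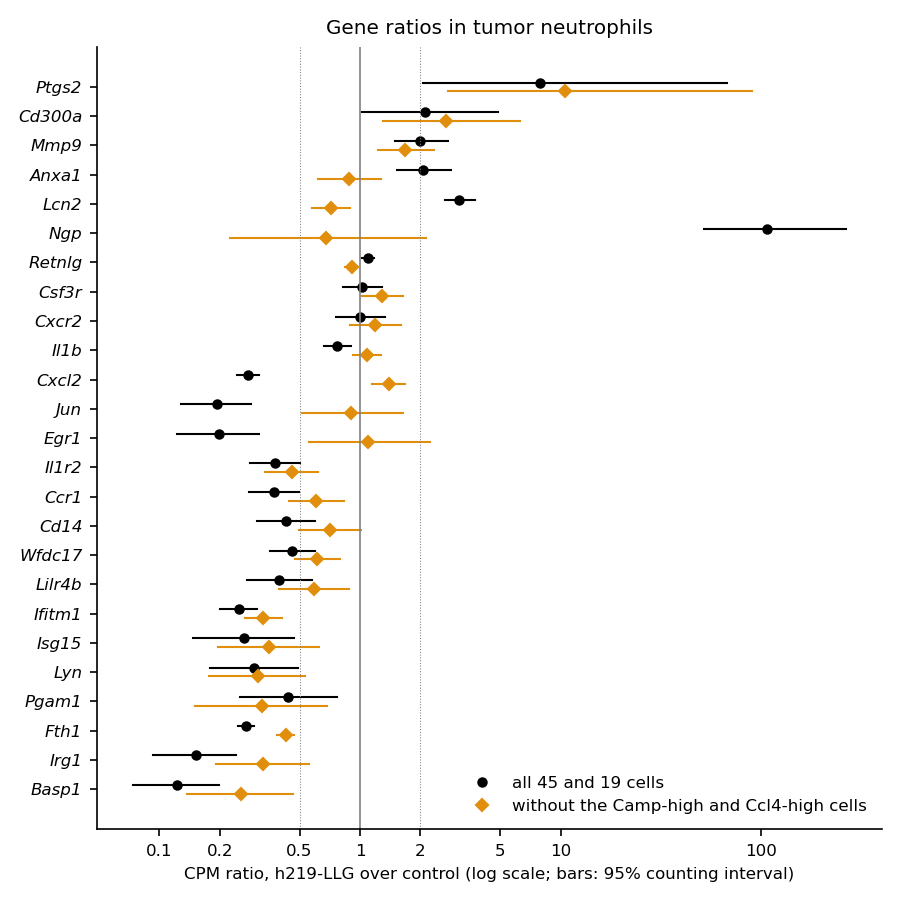
Ratios of CPM, h219-LLG over control (log axis), of 25 genes, with 95% counting intervals, for all cells (black circles) and without the 5 Camp-high and 2 Ccl4-high cells (orange diamonds). Dotted lines mark 2-fold. Ngp and Lcn2 fall from 107 and 3.13 to under 1 and Cxcl2 rises from 0.276 to 1.39, while Ifitm1, Lyn, Il1r2 and Fth1 lie under 0.5 in both and Ptgs2 above 2 in both.

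Mouse Lair1 itself had 8 UMIs in 4 h219-LLG cells, 5 of them in the cell with the most Camp, and 1 UMI in 1 control cell. It was seen in 132 of 424 (31.1%) and 102 of 208 (49.0%) monocytes and macrophages, and in 32 of 2282 and 15 of 1696 B cells. Which exons the knockout removed is not known here, so these reads check neither the deletion nor the treatment. Of 9 measured genes on the list of Lair1 and other inhibitory receptors, 3 were at least 2-fold higher with h219-LLG and 2 lower. Over all genes 6.69% were higher and 10.7% lower. Cd300a, an ITIM receptor for phospholipids, had 48 UMIs in 29 of 45 cells and 9 in 7 of 19, a ratio of 2.11 (1.03 to 4.90) and 2.70 (1.30 to 6.27) without the 7 cells. Clec4a2 and Clec12a, inhibitory C-type lectins, had ratios of 2.51 and 3.70, which fell to 0.968 and 1.58 without the 7. They then held 11 and 6 UMIs (Clec4a2) and 9 and 3 UMIs (Clec12a), too few to be measured. Lilr4b, a leukocyte immunoglobulin-like receptor with a nearly identical neighbor, Lilrb4a, stood at 347 and 877 CPM (0.396, 0.273 to 0.574), and at 0.591 without the 7. Lilrb4a, the most abundant of the list, had a ratio of 0.707, and Cd300lf one of 0.477, and of 0.672 (0.445 to 1.02) without the 7. In monocytes and macrophages Lilr4b (205.5 and 263.7 CPM) and Cd300lf (71.2 and 86.3 CPM) were also lower with h219-LLG. The part of this in the neutrophil values was not tested.

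Of 6 measured phosphatases and kinases of ITIM signaling 1, Lyn, was at least 2-fold lower and 0 higher, beside 10.7% lower over all genes, so the count is no result about the list. This Src family kinase phosphorylates ITIMs in myeloid cells. It stood at 171 CPM with h219-LLG and 575 CPM in the control, with 30 UMIs in 22 of 45 cells and 40 in 15 of 19, with at most 3 and 6 UMIs in a cell. After thinning to 1000 UMIs it was seen in 15.9% and 33.3% of cells. B cells, which also express Lyn, stood at 251 and 304 CPM, and h219-LLG T cells at 8.72 CPM. Monocytes and macrophages stood at 478 and 573 CPM. Lyn was thus also lower with h219-LLG in B cells and in monocytes and macrophages. The part of this in the neutrophil value was not tested. The ratio of Lyn in the neutrophils was 0.297 (0.179 to 0.489) with all cells and 0.311 (0.178 to 0.534) without the 7. Its log2 ratio lay between -1.84 and -1.45 over the 14 alternatives that could be computed. The phosphatase gene Ptpn6 had a ratio of 1.06 (0.571 to 2.06), and the related kinases Fgr and Syk had 1.26 (0.708 to 2.37) and 0.911 (0.586 to 1.45). Of 3 activating Fc receptor and adaptor genes measured 0 differed by 2-fold. Tyrobp, an adaptor that carries activating motifs, had a ratio of 0.984 (0.868 to 1.12).

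Ptgs2, the inducible prostaglandin synthase COX-2, was higher with h219-LLG among the members. It had 40 UMIs in 18 of 45 cells, at most 6 per cell, and 2 UMIs in 2 of 19 control cells, a ratio of 7.92 (2.05 to 67.7). After thinning to 1000 UMIs the shares of cells with Ptgs2 were 27.3% and 5.56%. None of the 40 UMIs came from Camp-high cells, and the ratio was 10.6 (2.74 to 90.2) without the 7. The direction nevertheless turned with the threshold of the choice. At a threshold of 3 UMIs of S100a8 and S100a9, 1 added control cell brought 45 UMIs of Ptgs2, and the log2 ratio went from 2.99 to -1.44. Alox5ap, which the leukotriene pathway needs, was the most abundant of the lipid mediator genes, with a ratio of 0.846 (0.672 to 1.07).

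Of 9 measured genes linked to tumor-adapted or suppressive neutrophils, Ptgs2 was higher and 4 were lower, beside 6.69% and 10.7% of all genes. Wfdc17 stood at 740 and 1610 CPM (ratio 0.460) and was also seen in 14.9% and 10.0% of B cells. Cd14, the coreceptor for lipopolysaccharide, stood at 456 and 1064 CPM (0.428), Cstb at a ratio of 0.332 and Ctsb, cathepsin B, at 0.182. Without the 7 cells the ratios of these 4 genes were 0.613 (0.472 to 0.796), 0.710 (0.499 to 1.01), 1.35 and 0.302. Ctsb then held 8 and 14 UMIs and was no longer measured. In monocytes and macrophages Cd14 (549 and 931 CPM) and Cstb (635 and 745 CPM) were also lower with h219-LLG. Wfdc17 (1363 and 1078 CPM) and Ctsb (1689 and 1638 CPM) were not lower there. The part of this in the neutrophil values was not tested. Clec4e, a receptor for mycobacterial glycolipids, had 1.62 with all cells and 2.24 (1.37 to 3.86) without the 7. Of the 18 genes of that list 3 had no UMI at all in these cells, and Siglecf, which marks a tumor neutrophil state in mouse lung tumors, was seen in 2 of 45 and 0 of 19 cells.

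In each of the other gene groups at most 1 gene was called, which in lists this short is close to the 6.69% and 10.7% of all genes. Of 6 NADPH oxidase subunits Cybb was at least 2-fold higher, with 88 and 2 UMIs. Without the 7 cells it held 3 and 2 UMIs, too few to be measured, at a ratio of 0.792. Rac2, the most abundant, had 1.32 (0.991 to 1.79). Of 8 adhesion genes Cd177 alone reached 2-fold, with 89 and 7 UMIs. Without the 7 cells it held 8 and 7 UMIs, too few to be measured, at a ratio of 0.603 (0.191 to 1.95). The hyaluronan receptor Cd44 had 0.709 with all cells and 1.12 (0.811 to 1.56) without the 7. Of 7 glycolysis genes Pgam1, phosphoglycerate mutase, was at least 2-fold lower, at 171 and 388 CPM (0.440, 0.253 to 0.769) and at 0.327 without the 7, and Gapdh had 0.599 (0.475 to 0.757). The myeloid transcription factors had 0 of 7 at 2-fold, with Cebpb, the most abundant, at 0.716 and 0.960. Of the survival genes Mcl1, on which neutrophil survival depends, had 1.05 (0.862 to 1.28). The calcium-binding S100a6 and S100a11 had 1.14 and 1.07, and S100a6 was at 1.28 (1.15 to 1.43) without the 7.

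**Figure D5:**
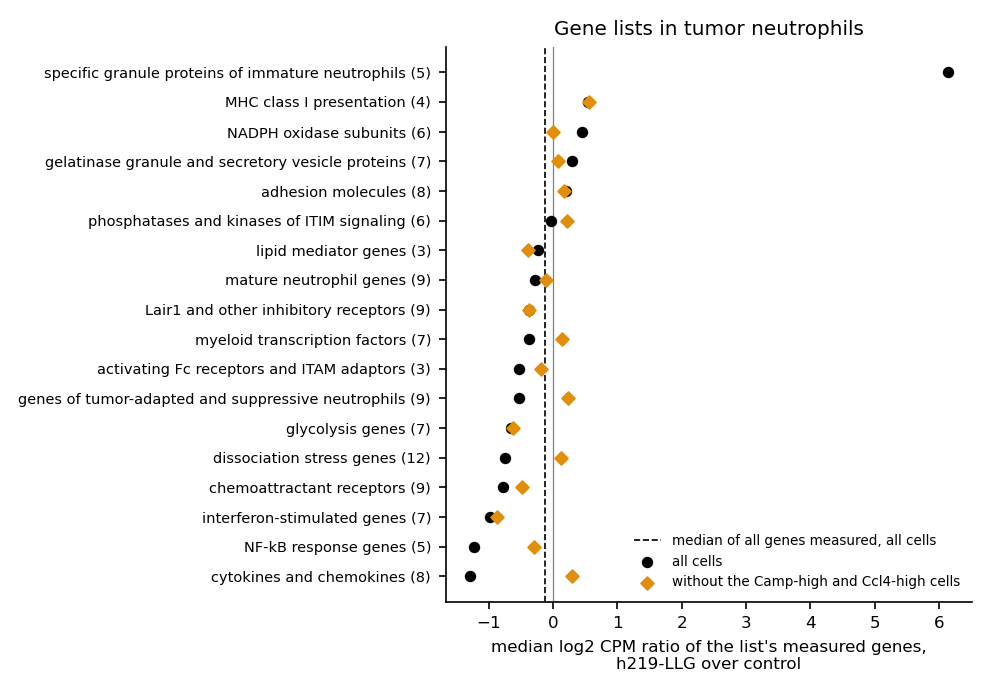
Median log2 ratio, h219-LLG over control, of each gene list with at least 3 measured genes (number of measured genes in brackets), for all cells (black) and without the 5 Camp-high and 2 Ccl4-high cells (orange, drawn where at least 3 genes stayed measured). The dashed line is the median of all 1032 genes, -0.12. The specific granule list lies at 6.14 with all cells, a lower bound since Camp, Ltf and Chil3 had 0 control UMIs and were set at 3, and the interferon-stimulated list lies at -0.98 and -0.87.

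Over all genes that were not more than 5 times higher in B cells, T cells or monocytes and macrophages of the same library, the 10 highest ratios belonged to Camp, Ngp, Ltf, Stfa1, Adpgk, Ptgs2, AA467197, Ltb4r1, Cd177 and Serpinb1a. Camp, Ngp, Ltf, Ltb4r1 and Cd177 are described above. Adpgk, an ADP-dependent glucokinase, had all of its 41 h219-LLG UMIs in the Camp-high cells, and Serpinb1a, an inhibitor of neutrophil proteases, 35 of 37. Stfa1 had 49 UMIs in 3 h219-LLG cells, 46.9% of them in 1 cell. The 38 UMIs of AA467197 included 29 in the Camp-high cells.

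The 10 lowest ratios belonged to Ccl3, Basp1, Ifrd1, Dusp5, Il1rn, Irg1, Jun, Egr1, Rhov and Hsp90aa1. The Ccl4-high cells held 99 of the 116 control UMIs of Ccl3, 55 of 61 of Ifrd1, 59 of 80 of Jun and 44 of 58 of Egr1, and a single cell held 63.6% of the control UMIs of Hsp90aa1. Ifrd1 was also lower with h219-LLG in other cells, at 126.5 and 234.7 CPM in B cells and 140.8 and 282.9 CPM in T cells. In monocytes and macrophages Ifrd1 stood at 349.2 and 783.7 CPM and Basp1 at 284.4 and 476.7 CPM. Dusp5 was lower in each of these kinds of cell. Jun was higher with h219-LLG in B and T cells, Basp1 in B cells and Ccl3 in monocytes and macrophages. The part of this in the neutrophil values was not tested. Irg1, the enzyme that makes itaconate, had 26 UMIs in 16 of 45 cells and 68 in 13 of 19, a ratio of 0.151 (0.0925 to 0.241) with all cells and 0.330 (0.192 to 0.557) without the 7. Basp1 had 23 and 74 UMIs, and ratios of 0.123 and 0.257 (0.138 to 0.463). Few control cells carried these values. Of the 37 control UMIs of Basp1 left without the 7, single cells held 13, 9 and 7. The last of these was the cell of 508 UMIs for which the label did not hold. A single control cell held 18 of the 40 control UMIs of Irg1 left without the 7. Fth1, the ferritin heavy chain, was no member of the 10 but stood among the most abundant genes of the control. Its ratio was 0.270 (0.247 to 0.295), and 0.426 (0.387 to 0.468) without the 7, with a median of 18 UMIs per h219-LLG cell (1 to 53) and 46 per control cell (2 to 258). The control cell with 258 was not among the 7, and it held them out of the 955 control UMIs of Fth1 then left. Fth1 was also lower with h219-LLG in other cells, at 2409 and 3069 CPM in B cells and 1281 and 1848 CPM in T cells. In monocytes and macrophages it stood at 7885 and 9841 CPM, and the part of this in the neutrophil value was not tested. Ftl1, the light chain, had 0.398 and 0.639.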

How the data were processed

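Per the labels, cells were loaded on a 10x Genomics 3' assay. The authors aligned the reads to mm10 and counted with Cell Ranger 5.0.0, per the submitters' processing notes, and deposited 1 matrix of UMI counts per library (8807 cells with h219-LLG, 6133 in the control). These counts were used as deposited. Kept cells numbered 7433 and 5607, with medians of 5050 and 5796 UMIs. The neutrophils held 175586 and 69552 UMIs in all. They had 755 to 13921 UMIs per cell with h219-LLG and 508 to 5204 in the control. Their median mitochondrial share was 0.841% and 1.08%, against 4.36% and 3.70% in the other kept cells. No doublet caller was run.

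UMIs were summed per gene symbol over the neutrophils of a library and scaled to 1000000 (CPM). Intervals are exact Poisson for CPM, exact binomial (Clopper-Pearson) for shares, a log-scale interval for the ratio of shares, and the exact binomial split of the UMIs for ratios of CPM. A gene was measured with at least 30 UMIs over both libraries and called at 2-fold, or at 4-fold against monocytes and macrophages, where its higher level had to reach 4 times the level of 3 UMIs in the neutrophils of each library. A group at 0 was set at 3 UMIs. B cells, T cells and monocytes and macrophages were taken by at least 2 UMIs of Cd79a, Cd3e or Csf1r, with 0 of the other 2. Scripts were tested on simulated data. Gene positions are from GENCODE vM21. Python 3.11.15, numpy 2.4.6, scipy 1.17.1 and matplotlib 3.10.9 were used.

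Named are the genes of the choice and the markers, the most abundant member and every member at 2-fold or more of each list, Lair1, the 10 highest and 10 lowest ratios, the 10 most abundant genes of each library and the 15 genes that lead in neutrophils. Others are named for context after their values were seen. The members and lists were chosen with earlier results of these data known. Trac, Ighm, Igkc and Cebpd are not analysed here.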

Additional observations from a re-analysis of the deposited data

How the results depend on the processing

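No paired analysis was possible because each group is 1 library. The share ratio of 1.79 kept its direction under all 11 alternatives, from 1.59 without the Camp-high cells to 2.19 with no limit on Csf1r, C1qa, Cd3e and Cd79a. The counts of 69 higher and 110 lower genes went to 324 and 351 with a minimum of 10 UMIs per gene and to 13 and 28 with a minimum of 100, where more or fewer genes were measured. Lower genes numbered 48 without the Camp-high cells and 35 without the Camp-high and Ccl4-high cells. Genes lower than in monocytes and macrophages went from 195 to 129 when S100a8 and S100a9 were left out of the total, which raises every neutrophil level. Without the Camp-high cells the log2 ratio of Anxa1 turned to -0.06 and that of Lcn2 to -0.36, which is also the specific granule median of -0.36, since Lcn2 was the 1 gene of that list still measured. Without the Ccl4-high cells alone Cstb turned to 0.07. Without both, Anxa1 was at -0.19, Lcn2 at -0.48, Ccrl2 at 0.42, Cstb at 0.43, Cxcl2 at 0.47 and Egr1 at 0.13, and the medians of the cytokine, stress, tumor-adapted and specific granule lists were 0.29, 0.13, 0.23 and -0.48, over the 4 of 8, 11 of 12, 8 of 9 and 1 of 5 genes still measured. At a threshold of 3 UMIs of S100a8 and S100a9 Ptgs2 turned to -1.44. Of 679 values of single genes under an alternative, 604 stayed inside the interval of the value with all cells. The 679 include the 10 values that turned direction, which are given above. With 19 control cells, a gene or cell state seen in few cells cannot be compared, and the shares of cells with a UMI fell with thinning to 1000 UMIs, from 95.6 to 63.6% for Cxcr2 with h219-LLG and from 89.5 to 61.1% in the control.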

Other observations

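Cells that passed both S100 thresholds but held a UMI of Csf1r, C1qa, Cd3e or Cd79a were left out of the neutrophils. They numbered 19 with h219-LLG and 3 in the control. Of the 19, all had Csf3r and Cxcr2, 18 had Retnlg and 6 had Camp, and 14 held Csf1r, 4 C1qa, 6 Cd3e and 1 Cd79a. Their median was 6021 UMIs, against 3000 in the neutrophils of that library. The 3 control cells all held Csf1r, had 0 cells with Retnlg or Cxcr2 and 1 with Csf3r, and a median of 8387 UMIs. Counting all of them, the shares were 0.861% of 7433 and 0.392% of 5607 cells.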
